A study of Mus musculus with 10 samples.

Results

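The 42 genes described here encode the core machinery that licenses, unwinds and copies chromosomal DNA, and they were taken by name from a mouse expression table of 26857 entries. They comprise the 6 subunits of the MCM helicase, the 6 of the origin recognition complex (ORC), 6 licensing and firing factors, 4 GINS subunits, the sliding clamp with its 5 loader subunits, 9 polymerase and primase subunits, the 3 subunits of RPA, and 2 enzymes that finish Okazaki fragments. All 42 were found, 7 of them under an older name (Orc1 to Orc6 as Orc1l to Orc6l, and Gins2 as 4833427B12Rik). All were measured at a mean above 1 FPKM (sequenced fragments adjusted for transcript length and library size), the level from which 12632 entries are called expressed here.

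Cells were V6.5 mouse embryonic stem (ES) cells on gelatin in serum and leukaemia inhibitory factor. For RNA-seq they received lentiviral short hairpins against luciferase (shLuc) or GFP (shGFP), the control hairpins, or against Rbfox2 (shFox2-1 or shFox2-2), the knockdown hairpins. All 4 hairpins shared 3 days of puromycin at 1 µg/ml and then 24 h without it, and each was infected in duplicate. The 2 libraries of a hairpin were pooled by the authors into 1 value, so each condition had 2 values and the spread between cultures was not available. For iCLIP, a crosslinking assay that maps where a protein touches RNA, cells carried human RBFOX2 with a FLAG-HA tag or without one on the doxycycline-inducible pSLIK vector. Those cells were selected in hygromycin at 150 µg/ml for 6 days, induced with doxycycline at 1 µg/ml for 24 h and irradiated at 150 mJ/cm2. The binding data are therefore those of an added, tagged human protein, with 1 tagged and 1 untagged library. The series addressed the effect of Rbfox2, a splicing regulator, on networks of RNA-binding proteins.

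Replication is licensed in G1, when ORC, Cdc6 and Cdt1 load MCM helicases on origins, and geminin (Gmnn) blocks Cdt1 once S phase has begun. The kinase Cdc7 with its activator Dbf4, together with Mcm10 and GINS, then turns loaded MCM into the active helicase, RPA coats the single strands, and primase, polymerase alpha, delta and epsilon, the clamp PCNA, the flap nuclease Fen1 and ligase Lig1 make and join the new DNA. Many of these genes are known E2F targets, and ES cells are known for a short G1 and a large share of cells in S phase. The measurements are from bulk RNA, in which fewer cells of a type and less RNA per cell cannot be told apart.

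Promoter letters are shown first because E2F sites are the regulatory feature these genes are known to share. In RefSeq promoters of GRCm38.p6 (250 bases before to 50 after the start site), 34 of the 42 members were matched. The letters TTTCCCGC, TTTGGCGC, TTTCGCGC and TTTGCCGC were searched on both strands, where a TTTCGCGC on one strand and a TTTGGCGC on the other can overlap. At least 1 match was found in 15 of the 34 members (44.1%), against 2.6% of 27025 genes in the same windows and 5.10% of the 8260 expressed genes among them. TTTCCCGC was found in 8 of the 34 members, TTTGGCGC in 6, TTTCGCGC in 6 and TTTGCCGC in 0. The shares of the 27025 genes were 1.24%, 0.585%, 0.374% and 0.507% in the same order. A match is a run of letters and was not tested as a site. One member of each of 6 role groups is shown, 5′ to 3′ on the gene's strand and ending before the start site, with the matched letters in capitals. The GRCm38.p6 positions are chr8:75109330-75109393 on the plus strand for Mcm5, chr4:108579401-108579453 on the plus strand for Orc1 and chr11:98907987-98908046 on the plus strand for Cdc6. They are chr8:95633492-95633551 on the plus strand for Gins3, chr5:151651209-151651244 on the minus strand for Rfc3 and chrX:93632260-93632319 on the minus strand for Pola1.
Mcm5: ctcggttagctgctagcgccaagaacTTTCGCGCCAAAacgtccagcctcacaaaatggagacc
Orc1: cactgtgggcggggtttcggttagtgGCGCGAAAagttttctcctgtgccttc
Cdc6: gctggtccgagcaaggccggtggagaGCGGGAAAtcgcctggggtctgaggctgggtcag
Gins3: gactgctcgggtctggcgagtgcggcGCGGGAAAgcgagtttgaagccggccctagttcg
Rfc3: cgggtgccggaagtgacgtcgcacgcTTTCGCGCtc
Pola1: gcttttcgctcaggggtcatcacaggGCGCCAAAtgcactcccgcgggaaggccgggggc
In Mcm5 a TTTCGCGC on the gene's strand and a TTTGGCGC on the other strand overlap in 1 run of 12 capitals. Orc1, Cdc6, Gins3 and Pola1 carry their match on the other strand, and Rfc3 carries the match shown on the gene's own strand, 10 to 3 bases before the start. Rfc3 has a second match, a TTTCCCGC on the other strand, that begins at the start site and is outside the stretch shown.

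The knockdown was read first in its target. Rbfox2, listed as Rbm9, stood at 24.7 FPKM in shLuc, 23.3 in shGFP, 8.56 in shFox2-1 and 7.21 in shFox2-2, and the mean of the knockdown hairpins was 32.9% of that of the controls. Its log2 difference on the log2(FPKM + 1) scale was -1.50 (standard error 0.14), with an unadjusted limma p of 6.82e-05 and a limma adjusted p of 0.913 over 20281 tested genes. The labelled cell type was checked on its markers. All 10 ES cell markers were expressed, with summed levels of 1438 to 1783 FPKM, and 2 of 8 fibroblast markers were, with sums of 4.67 to 5.24 FPKM. Of the primitive endoderm markers 2 of 7 were expressed, with sums of 7.16 to 8.29 FPKM. Of the neural markers 5 of 6 were, with sums of 42.5 to 52.0 FPKM. Tubb3 held most of the neural sums and was highest in shFox2-1, while Nes, Sox1 and Pax6 were lowest there and Map2 was neither. The median expressed gene differed between hairpins on the log2(FPKM + 1) scale, at 3.11 in shLuc, 3.18 in shGFP, 3.22 in shFox2-1 and 3.03 in shFox2-2. Values are given as deposited, and differences are also given after the hairpins were centred on that median.

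Members were abundant, with mean levels of 4.29 FPKM for Gins3 to 141 FPKM for Mcm2, a median of 22.5 FPKM, and 40 of 42 above the median expressed gene at 7.81 FPKM. The precision of each value comes from the deposited confidence interval, whose median half-width over members was 11.5% of the value in shLuc, 12.6% in shGFP, 12.8% in shFox2-1 and 15.4% in shFox2-2. Depth is unknown, since no counts were given. In limma, 2 knockdown against 2 control hairpins, no gene passed an adjusted p of 0.05, the targeted gene included, so a missing call says nothing about whether a member was stable. The count of members with a limma adjusted p under 0.05 was 0, as it was over all 20281 tested genes (background 0.0% in each direction). At an unadjusted p under 0.05 it was also 0 members, against 2.3% of tested genes higher and 2.17% lower. The members' limma adjusted p ran from 0.978 to 0.998, and their log2 differences from -0.25 (Pold2) to 0.28 (Gins1). For 0 members did the intervals of both knockdown hairpins lie beyond those of both controls on one side, against a background of 0.174% of expressed genes higher and 0.119% lower.

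**Figure D1:**
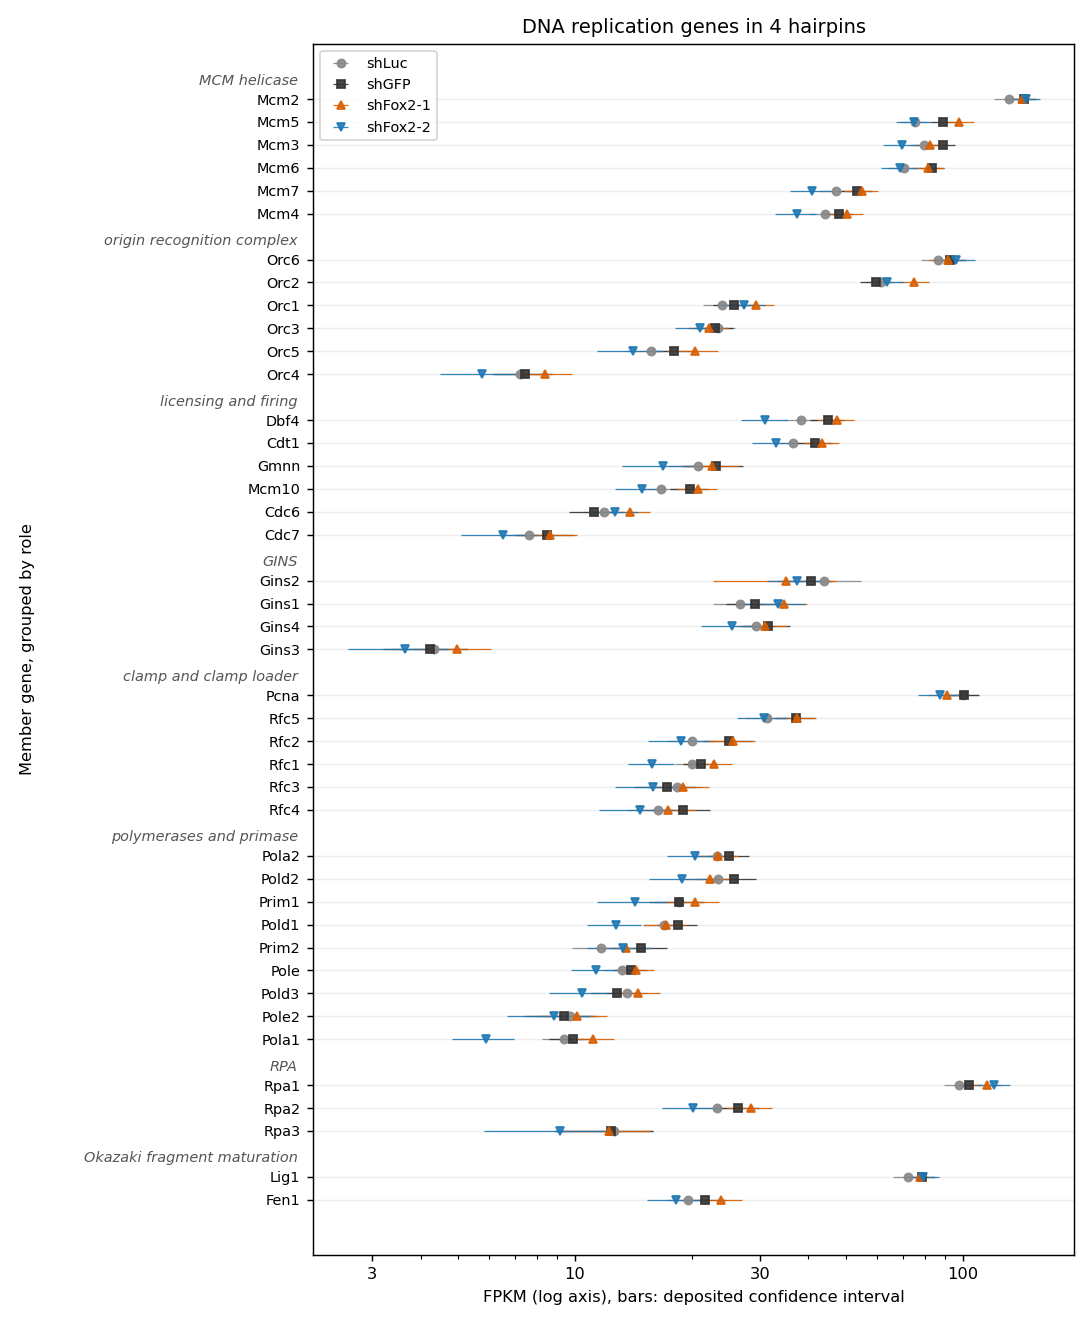
FPKM (log axis) of the 42 members in shLuc, shGFP, shFox2-1 and shFox2-2, grouped by role; points are the pooled values of a hairpin and bars the deposited confidence interval. Levels run from 4.29 FPKM (mean, Gins3) to 141 FPKM (mean, Mcm2), and the shFox2-2 point is the leftmost in 32 of 42 rows.

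What many members shared was a low position in shFox2-2. The value in shFox2-2 was the lowest of the 4 in 32 of 42 members (76.2%). That share was 45.4% of expressed genes and 48.7% of the 8257 expressed genes within the members' FPKM range. The value in shFox2-1 was the highest in 25 of 42 (59.5%), nearer to the background of 45.6% of expressed genes and 50.2% of those in that range. The 2 knockdown hairpins, which are compared with the same controls, thus stood on different sides of them for many members. In 21 members shFox2-1 was above both controls and shFox2-2 below both, against 25.6% of expressed genes and 28.9% in that range, and the reverse was found in 0 members (background 5.17%). The controls differed too, with shGFP above shLuc in 33 of 42 members (background 67.6%).

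In medians over members on the log2(FPKM + 1) scale, shFox2-1 stood 0.13 above the control mean, shFox2-2 0.24 below it (-0.24) and shGFP 0.12 above shLuc. For all expressed genes the same medians were 0.07, -0.09 and 0.07, and for expressed genes in the members' FPKM range 0.09, -0.10 and 0.08. With both knockdown hairpins together the members' median was -0.06, against -0.01 for expressed genes. Centring moves shFox2-2 up and shFox2-1 down for every gene. It thus lowered the counts for these positions in members and in expressed genes alike, and raised those for the reverse. After centring, shFox2-2 was the lowest in 24 members (57.1%, background 24.5%) and shFox2-1 the highest in 14 (33.3%, background 29.0%). The opposite positions were held by 12 (28.6%, background 12.5%). The reverse, shFox2-1 below both controls and shFox2-2 above both, was held by 3 (7.14%, background 15.1%). The centred medians of the members were 0.04 in shFox2-1 and -0.11 in shFox2-2, against -0.0072 and 0.013 for expressed genes.

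**Figure D2:**
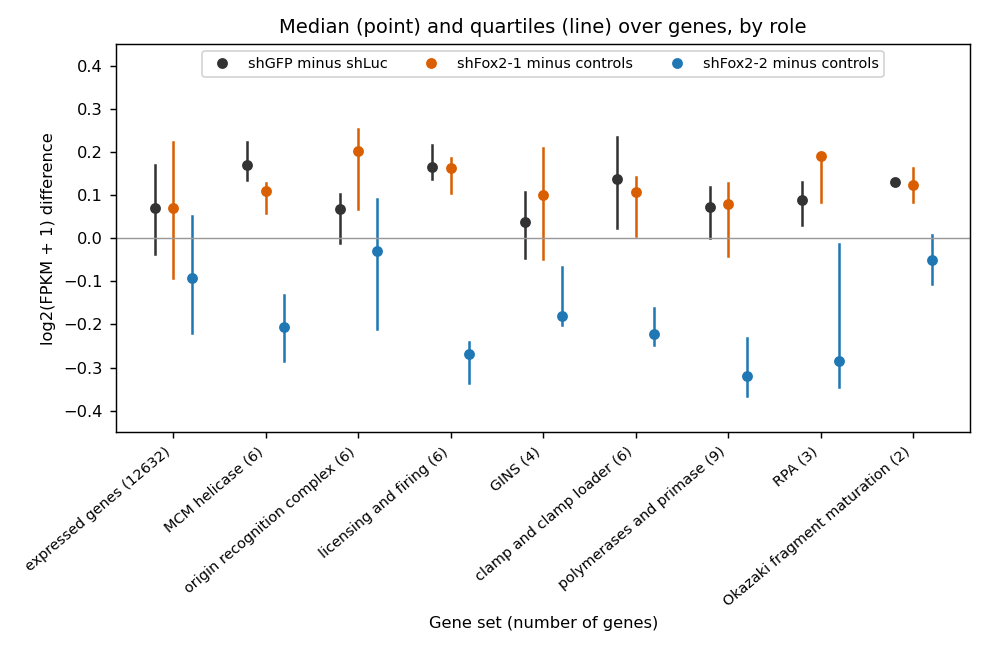
Differences on the log2(FPKM + 1) scale, shown as the median (point) and the quartiles (line) over genes, for all expressed genes and for each role group, with the number of genes in brackets. shFox2-2 lies below 0 in the median of every role group, from -0.32 in polymerases and primase to -0.03 in the origin recognition complex, against -0.09 over expressed genes.

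The position also went with the status that the table gives each value. In 34 members the status was OK in all 4 hairpins, and in 8 (Mcm2, Orc1, Orc2, Orc6, Cdc6, Gins1, Gins2 and Lig1) it was low-data in at least 1. Among the 34, shFox2-2 was the lowest hairpin in 32, all but Prim2 and Rpa1, and among the 8 it was the lowest in 0. Over expressed genes the shares were 49.3% of 10348 with status OK in all hairpins and 28.2% of 2284 with a low-data status. The median difference of shFox2-2 from the controls was -0.25 in the 34 and 0.09 in the 8, against -0.11 and 0.01 in the same classes of expressed genes. The 8 were not the scarce members, with a median of 52.1 FPKM against 20.8 in the 34. Centred within each status class, shFox2-2 was the lowest in 20 of 42 members (background 23.8%) and 10 had opposite positions (background 12.1%). What the status does to a value was not tested.

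**Figure D3:**
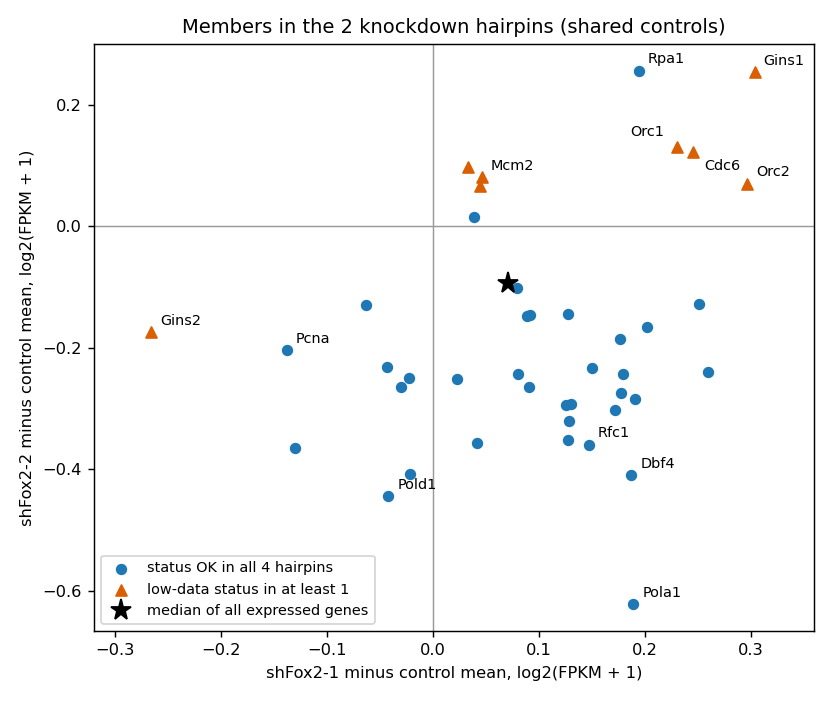
Each member's difference from the control mean in shFox2-1 (horizontal) and shFox2-2 (vertical) on the log2(FPKM + 1) scale, with circles for status OK in all 4 hairpins, triangles for a low-data status in at least 1, and a star at the median of all expressed genes (0.07 and -0.09). Both axes share the control values; 32 of 34 circles are members whose lowest value was in shFox2-2, and 7 of 8 triangles lie above 0 on the vertical axis.

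The 6 MCM genes encode the ring that unwinds the parental strands, and they ranged in mean level from 45.0 FPKM (Mcm4) to 141 FPKM (Mcm2), 3.14 times, although the loaded ring holds one of each. Mcm2 (mm9 chromosome 6, 88833468 to 88848774), the most abundant member, was listed at 132 FPKM in shLuc, 144 in shGFP, 142 in shFox2-1 and 146 in shFox2-2. Only its shLuc value was apart, and the knockdown values bracketed the shGFP value; the log2 difference was 0.06 (standard error 0.10). Mcm5 (chromosome 8, 77633426 to 77652338) stood at 75.4, 89.3, 97.8 and 75.0 FPKM in the same order, and its 2 controls were farther apart than either knockdown value was from the nearer control. Mcm3 (chromosome 1, 20793094 to 20810294) had the largest difference of the 6, at 79.4, 88.9, 82.3 and 69.8 FPKM and -0.15 (standard error 0.13). The shFox2-2 value was the lowest in 5 of 6 MCM genes, all but Mcm2, and the summed level of the 6 was 449 FPKM in shLuc, 507 in shGFP, 510 in shFox2-1 and 438 in shFox2-2.

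ORC marks origins, and its 6 genes had the widest range of the 8 role groups, from 7.20 FPKM (Orc4) to 91.7 FPKM (Orc6), 12.7 times. The range rests on Orc4, whose 204.5 kb entry is joined with another gene (Acvr2a) and is uncertain, and without Orc4 it was 5.38 times, against 9.44 for RPA and 9.14 for GINS. Orc6 (chromosome 8, 87823497 to 87831969), the subunit least like the others, stood at 86.3, 93.0, 91.7 and 95.9 FPKM in shLuc, shGFP, shFox2-1 and shFox2-2, a difference of 0.07 (standard error 0.10). Orc2 (chromosome 1, 58519614 to 58561763) stood at 61.6, 59.8, 74.8 and 63.8 FPKM, so both knockdown values were above both controls. Its shFox2-1 interval (67.8 to 81.9 FPKM) lay above those of shLuc (56.2 to 67.0) and shGFP (54.5 to 65.2), a position held by Orc2 alone among the members and by 5.44% of expressed genes. That of shFox2-2 (57.2 to 70.4) overlapped all of them. The Orc2 log2 difference was 0.18 (standard error 0.12), with a limma adjusted p of 0.978. After centring, the shFox2-1 interval of 0 members lay above both controls (background 3.07%). Orc1, the ATPase subunit whose level is known to cycle, was also above both controls in both knockdown hairpins, at 24.0, 25.7, 29.3 and 27.3 FPKM. Orc3 was below both, at 23.4, 22.9, 22.1 and 21.1 FPKM.

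Among the licensing and firing factors, mean levels ran from 7.82 FPKM for the kinase Cdc7 to 40.4 FPKM for its activator Dbf4. Dbf4 (chromosome 5, 8397010 to 8422606) stood at 38.3, 45.0, 47.4 and 31.0 FPKM in shLuc, shGFP, shFox2-1 and shFox2-2. The interval of shFox2-2 (26.8 to 35.2 FPKM) lay below those of shFox2-1 (42.2 to 52.6) and shGFP (40.5 to 49.5) and overlapped that of shLuc (34.5 to 42.1). Cdt1, the MCM loader (chromosome 8, 125091914 to 125097030), stood at 36.5, 41.7, 43.4 and 33.0 FPKM, with a difference of -0.04 (standard error 0.16) over both hairpins. The highest and the lowest of its values were thus both knockdown values. Cdc6 (chromosome 11, 98769202 to 98785256), the ATPase that recruits Cdt1 and MCM to ORC, was above both controls in both knockdown hairpins, at 11.9, 11.2, 13.9 and 12.7 FPKM and 0.18 (standard error 0.13), with a low-data status in all 4. Geminin was the lowest in shFox2-2, at 20.8, 23.0, 22.6 and 16.9 FPKM, and its locus in the table is joined with that of a predicted gene.

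GINS holds the MCM ring together with Cdc45, and its 4 genes ranged from 4.29 FPKM (Gins3) to 39.2 FPKM (Gins2). Gins1 (chromosome 2, 150735321 to 150757016) stood at 26.6, 29.1, 34.5 and 33.3 FPKM in shLuc, shGFP, shFox2-1 and shFox2-2, with both knockdown values above both controls. Its log2 difference of 0.28 (standard error 0.11) was the largest upward one of the members, and its unadjusted limma p of 0.0544 the smallest, with a limma adjusted p of 0.978. All 4 intervals overlapped, from 22.7 to 30.5 FPKM in shLuc to 29.4 to 39.6 in shFox2-1. Gins2 (chromosome 8, 123012765 to 123112975), at 43.9, 40.6, 35.0 and 37.3 FPKM, was below both controls in both, at -0.22 (standard error 0.11). The Gins2 entry spans 100.2 kb because its locus is joined with that of Gse1, so its values are uncertain.

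The clamp PCNA, which holds the polymerases on DNA, was listed at 94.9 FPKM on average, above the 16.9 to 34.2 FPKM of its loader subunits Rfc1 to Rfc5. Pcna (chromosome 2, 132075021 to 132078916) stood at 100.4 FPKM in shLuc, 101 in shGFP, 91.3 in shFox2-1 and 87.2 in shFox2-2. Both knockdown values were below both controls, at -0.17 (standard error 0.10) with an unadjusted limma p of 0.130 and a limma adjusted p of 0.978, and the intervals overlapped. Rfc5 (chromosome 5, 117829153 to 117839032) stood at 31.2, 37.3, 37.4 and 30.8 FPKM, each knockdown value beside 1 control. Rfc1 (chromosome 5, 65653096 to 65726844), the large loader subunit, was singled out after its values were seen, at 20.1, 21.1, 22.9 and 15.8 FPKM. Its shFox2-2 interval (13.7 to 18.0 FPKM) ended just under that of shLuc (18.1 to 22.0) and lay below those of the other two. The shFox2-2 value was the lowest in all 6 genes of the clamp and its loader.

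Polymerase and primase genes ranged from 9.06 FPKM (Pola1) to 23.0 FPKM (Pola2), and had the lowest group median in shFox2-2, at -0.32. Pola1 (chromosome X, 90550105 to 90877494), the catalytic subunit of polymerase alpha, which starts each new strand, stood at 9.36, 9.87, 11.1 and 5.90 FPKM in shLuc, shGFP, shFox2-1 and shFox2-2. Its shFox2-2 value was 61.3% of the control mean and its shFox2-1 value 115%. The shFox2-2 interval (4.82 to 6.98 FPKM) lay below those of shLuc (8.24 to 10.5), shGFP (8.58 to 11.2) and shFox2-1 (9.63 to 12.6). This was so for 3 members as deposited, Pola1, Pold1 and Rfc1 (background 1.98%), and for Pola1 alone after centring (background 0.752%). Over both hairpins Pola1 differed by -0.22 (standard error 0.28), the largest standard error of the members.

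Pold1, the catalytic subunit of polymerase delta, stood at 16.9, 18.5, 17.2 and 12.8 FPKM, with the shFox2-1 value between the controls. Pold2 (chromosome 11, 5772190 to 5778220), its regulatory subunit, stood at 23.4, 25.7, 22.3 and 18.8 FPKM, below both controls in both knockdown hairpins. Its difference of -0.25 (standard error 0.14, unadjusted limma p 0.128, limma adjusted p 0.978) was the largest downward one of the members. Pola2 (chromosome 19, 5940545 to 5964170), the accessory subunit of polymerase alpha, stood at 23.3, 25.0, 23.4 and 20.4 FPKM, with only shFox2-2 below the controls. Among the 9 genes Prim2, the large primase subunit, was the one not lowest in shFox2-2, at 11.7, 14.8, 13.5 and 13.3 FPKM.

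RPA binds single-stranded DNA as a complex of 3 subunits, yet Rpa1 was listed at a mean of 109 FPKM against 24.5 FPKM for Rpa2 and 11.6 FPKM for Rpa3. Rpa1 (chromosome 11, 75113849 to 75161805) stood at 97.7, 104, 115 and 121 FPKM in shLuc, shGFP, shFox2-1 and shFox2-2, with both knockdown values above both controls. It was the one member of status OK in all hairpins with that order, at 0.23 (standard error 0.10), an unadjusted limma p of 0.0654 and a limma adjusted p of 0.978. Rpa2 (chromosome 4, 132324274 to 132334661) stood at 23.3, 26.3, 28.4 and 20.2 FPKM and Rpa3 at 12.6, 12.3, 12.3 and 9.16 FPKM, both lowest in shFox2-2. The 3 subunits thus did not share a position.

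For Okazaki fragments, the ligase gene Lig1 (chromosome 7, 13864174 to 13896776) stood at 72.2, 78.5, 77.7 and 78.9 FPKM, a difference of 0.06 (standard error 0.10), with a low-data status in all 4 hairpins. Fen1 (chromosome 19, 10273628 to 10278433) stood at 19.6, 21.7, 23.9 and 18.3 FPKM, highest in shFox2-1 and lowest in shFox2-2.

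Counted over all roles, both knockdown values were above both controls in 5 members (Orc1, Orc2, Cdc6, Gins1 and Rpa1), against 14.3% of expressed genes. They were below both in 5 others (Orc3, Gins2, Pcna, Pold2 and Rpa3), against 17.8%. By status, 4 of the 8 low-data members were above both controls (background 25.7%) and 1 of the 34 others (background 11.8%). The shFox2-2 interval lay below the shFox2-1 interval in 12 members (background 13.0%, and 17.1% in the members' FPKM range). These were Mcm4, Mcm5 and Mcm7, Orc5, Cdt1, Dbf4 and Mcm10, Rfc1, Pola1, Pold1 and Pold3, and Rpa2, and after centring Dbf4 and Pola1 (background 4.92%), or 2 members when centred within status class (background 4.62%). The reverse, a shFox2-2 interval above that of shFox2-1, was found in 0 members (background 1.97%). A shFox2-2 interval above both controls was found in 0 (background 0.348%) and a shFox2-1 interval below both in 0 (background 2.11%). The limma counts depended on which hairpins entered. In limma without shFox2-1, 7 members had an unadjusted p under 0.05, all lower (Orc4, Rfc1, Pola1, Pold1, Pold3, Prim1 and Rpa3), with a limma adjusted p of 0.481 at the lowest, while 5.24% of all tested genes did so lower. Without shFox2-2, Orc2 had one, higher, with a limma adjusted p of 0.327, while 10.3% of all tested genes did so higher. Marker sums moved with the hairpin as well. The 10 ES cell markers summed to 1438, 1575, 1783 and 1477 FPKM in shLuc, shGFP, shFox2-1 and shFox2-2, and the 8 trophoblast markers to 43.5, 47.9, 81.2 and 46.9 FPKM. Of the latter, Krt8, Krt18 and Tfap2c were expressed. The rest, Cdx2, Eomes, Elf5, Hand1 and Gata3, stood at means of 0.431, 0.861, 0.0906, 0.618 and 0.543 FPKM. All 8 but Eomes were highest in shFox2-1. The part of these markers in the members' values was not tested.

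Genes that work beside the members were read from 5 lists. Of their expressed genes, 0 had an unadjusted limma p under 0.05, against 2.3% of tested genes higher and 2.17% lower. Among 26 other replication factors, 26 expressed, the median difference was 0.10 in shFox2-1 and -0.25 in shFox2-2 (0.02 and -0.14 after centring). The count lowest in shFox2-2 was 19, or 16 after centring, read against 45.4% and 24.5% of expressed genes here and in the lists that follow. In both knockdown hairpins 1 was above both controls (background 14.3%) and 3 were below (background 17.8%). Their most abundant genes were Chtf8, of an alternative clamp loader, at 81.5, 84.2, 83.0 and 94.6 FPKM, and the topoisomerase gene Top2a, at 66.7, 73.7, 77.2 and 47.9 FPKM. Those 2 stood at opposite ends in shFox2-2. In nucleotide supply, 12 of 12 were expressed, with medians of 0.10 and -0.11 in shFox2-1 and shFox2-2, which after centring were 0.0066 and -0.0045, and 7 were lowest in shFox2-2, or 5 after centring. The dUTPase gene Dut stood at 99.6, 101, 107 and 121 FPKM, and Rrm1, of ribonucleotide reductase, at 83.5, 88.4, 87.1 and 94.8 FPKM, both highest in shFox2-2. Chromatin assembly genes, 8 of 10 expressed and 2 not matched, had medians of 0.08 and -0.22 (-0.0069 and -0.10 after centring), with 5 lowest in shFox2-2, or 4 after centring. The histone chaperone gene Nasp stood at 216, 208, 216 and 191 FPKM, and the acetyltransferase gene Hat1 at 71.2, 81.7, 97.7 and 63.9 FPKM.

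G1/S control genes, 32 of 33 expressed, had medians of 0.11 in shFox2-1 and -0.13 in shFox2-2 (0.04 and -0.02 after centring), with 17 lowest in shFox2-2, or 12 after centring. In both knockdown hairpins 7 were above both controls (background 14.3%) and 2 below (background 17.8%). Ddb1, of the ligase complex that destroys Cdt1, stood at 227, 258, 287 and 284 FPKM, and the cyclin D kinase gene Cdk4 at 240, 254, 255 and 275 FPKM. Both were above both controls in both knockdown hairpins. Replication checkpoint genes, 9 of 10 expressed and 1 not matched, had medians of 0.20 and -0.17 (0.11 and -0.06 after centring), with 5 lowest in shFox2-2 as deposited and after centring. The checkpoint kinase gene Chek1 stood at 23.5, 23.6, 28.4 and 20.4 FPKM, highest in shFox2-1 and lowest in shFox2-2.

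Members were then read in the iCLIP list, which holds 35639 clusters of the tagged library enriched over the untagged one, with the coverage, fold enrichment and q-value as the authors gave them. Of these, 167 carried the gene ID of a member, and 33 of 42 members (78.6%) held at least 1. That share was 60.2% of 10718 expressed genes with a current symbol and 68.3% of the 7107 in the members' FPKM range. The 9 without one were Cdc6, Gmnn, Pcna, Rfc3, Rfc5, Pold1, Pold2, Prim1 and Fen1, with loci of 3.90 to 16.1 kb. All 20 members with a locus of at least 20 kb held a cluster (86.4% of genes in that FPKM range), and 13 of 22 shorter ones did (47.3%). The count went with locus length, with a Spearman correlation of 0.77 over the 42 members and 0.64 over the 7107 expressed genes in their FPKM range. With mean FPKM it was 0.06 over the members. These are descriptions over genes of 1 library.

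**Figure D4:**
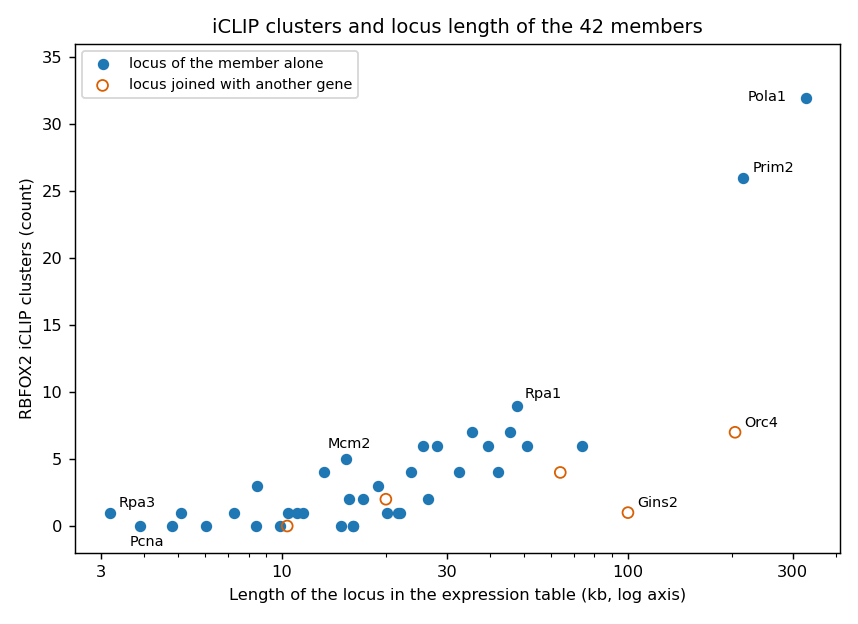
RBFOX2 iCLIP clusters per member (count) against the length of the member's locus (kb, log axis), with open circles where the locus in the table is joined with another gene. Pola1 (32 clusters, 327 kb) and Prim2 (26 clusters, 216 kb) hold 58 of the 167 clusters.

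The members with the most clusters were those with the 2 longest loci, Pola1 with 32 (327 kb) and Prim2 with 26 (216 kb), together 58 of 167, followed by 9 in Rpa1 and 7 each in Orc1, Orc3 and Orc4. Pola1 and Prim2, which both belong to the polymerase alpha and primase complex, stood differently in shFox2-2, at 61.3% of the control mean for Pola1 and a difference of 0.02 for Prim2. Over members with a cluster the median log2 difference was -0.05, and over the 9 without one it was -0.11. No untagged reads were listed for 80 of the 167 clusters (47.9%, against 44.9% of the list). The median coverage was 326, against 374 in the list.

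The 5 member clusters of highest coverage held 56.9% of the summed coverage of 237504. The first lay in Mcm10, a helicase activator (mm9 chromosome 2, 4930425 to 4931865, minus strand, 1441 bases), with a coverage of 73370, rank 22 in the list and a fold enrichment of 3.30. It was the one cluster of Mcm10 and lay 2.53 kb inside the 5′ end of the locus. The next lay in Mcm5 (chromosome 8, 77637127 to 77637738, plus strand), with a coverage of 34508, rank 130 and a fold of 11.5. Both were among the top 1% of the list. In Dbf4 a cluster (chromosome 5, 8412903 to 8413217) had a coverage of 9786 and a fold of 14.6, in Pold3 (chromosome 7, 107236776 to 107237101) 9325 and 41.6, and in Orc1 (chromosome 4, 108262166 to 108262537) 8227 and 12.3. All 5 lay more than 1 kb inside the ends of their locus. Of the 167 clusters, 10, in 8 members, lay in the last kb, among them 1 in Mcm2 and 1 in Cdt1. In the 37 members whose locus is not joined with another gene, 9 of 153 clusters did. The share was not computed for the whole list. Whether a cluster lies in an exon or an intron, and its sequence, were not analysed here. Mcm10 and Mcm5 hold the largest clusters. In shLuc, shGFP, shFox2-1 and shFox2-2 they stood at 16.7, 19.8, 20.7 and 14.9 FPKM and at 75.4, 89.3, 97.8 and 75.0 FPKM. Both were highest in shFox2-1 and lowest in shFox2-2, as were 21 of the 42 members and 25.6% of expressed genes.

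Some loci hold more than 1 gene. In Cdt1 the 5.12 kb locus overlapped 3 clusters, of which 2 carried another gene ID. That of Gins2, joined with Gse1, overlapped 16, of which 15 did, and that of Orc4, joined with Acvr2a, overlapped 11, of which 4 did. Only clusters with the member's own ID are counted above, and counting every overlap gave 189 clusters in the same number of members (33).

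Members with an E2F letter match had a median difference of 0.13 in shFox2-1 and -0.15 in shFox2-2, and the matched members without one had 0.13 and -0.25. Of the 6 shown, Pola1, Gins3, Rfc3 and Mcm5 were highest in shFox2-1 and lowest in shFox2-2, and Orc1 and Cdc6 were above both controls in both knockdown hairpins. Members with a match were thus found in both positions.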

How the data were processed

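FPKM values were computed by the authors and deposited as 1 number per gene for each hairpin, beside the bounds of its confidence interval and a status, per the file headers. TopHat2 2.0, Cufflinks 2.1.1 and mm9 are named in the submitters' processing notes. For the scaling between hairpins, the meaning of the status and the calling of iCLIP clusters, the method was not given in the sources used here. Clusters carry the authors' deposited coverage, fold and q-value, used here only as descriptions. Entries with a failed status (105) and entries at 0 in every hairpin were left out, and 20281 were tested. The 2 knockdown hairpins were compared with the 2 controls on log2(FPKM + 1) by limma 3.58.1 in R 4.3.3, using its trend option, with Benjamini-Hochberg adjustment over all tested genes. Fold changes on that scale understate the change of low genes. Its p-values measure the spread between hairpins, not between cultures. Counts of intervals, orders and medians are descriptions without a test. Members and lists were chosen with earlier results of these data known. Named by rule are, in each role group, the 2 members of highest FPKM and the one with the largest absolute log2 difference at a mean of at least 5 FPKM, the members with the most clusters, the 5 clusters of highest coverage, and 2 genes of highest FPKM per list, of which 1 is not reported here. Other members were named after their values were seen. Clusters were assigned by the authors' gene ID. Alternatives tried were centring, the pseudocount, the filter on low values, the trend, leaving out each hairpin, the status and the cluster thresholds and assignment.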

Additional observations from a re-analysis of the deposited data

Results flagged for a closer look

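In 21 of 42 members the shFox2-1 value lay above both control values and the shFox2-2 value below both, against 25.6% of expressed genes and 28.9% of those in the members' FPKM range, so the 2 knockdown hairpins stood on opposite sides of the controls they share. Each hairpin is 1 pooled value, and the difference was not tested. With the hairpins centred on the median expressed gene the count was 12 (background 12.5%).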

How the results depend on the processing

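Of 98 alternative values, 71 stayed near the reported value and 27 moved. Near meant equal or within 1.5 times for a count or share, and a difference under 0.084 for a median. That tolerance is wider than the members' median of -0.057 over both knockdown hairpins, so staying near is a loose measure there. Centring the hairpins on the median expressed gene gave 1 member (Gins1) with an unadjusted limma p under 0.05, as did leaving out the trend (1). Of all 20281 tested genes, 1084 and 1021 had one in those settings, in either direction. Centring gave 10 members below both controls in both knockdown hairpins, for which no share of expressed genes was computed. It gave 14 highest in shFox2-1 (background 29.0%), 12 with opposite positions (background 12.5%) and 2 with the shFox2-2 interval below that of shFox2-1 (background 4.92%). The centred medians were 0.038 in shFox2-1, -0.11 in shFox2-2 and -0.093 between them (shFox2-2 minus shFox2-1), against -0.30 as deposited. Centring within status class, chosen after seeing the data, gave 11 below both controls, again without a computed share of expressed genes. It gave 20 lowest in shFox2-2 (background 23.8%), 10 with opposite positions (background 12.1%) and 2 with separate intervals (background 4.62%). Its medians were 0.032, -0.10 and -0.10. The other centring of positions was also chosen after seeing the data. Leaving out 1 hairpin in turn gave 0 to 1 members with an unadjusted limma p under 0.05 higher (1.12% to 10.3% of tested genes) and 0 to 7 lower (2.34% to 5.24%). It gave 0 to 1 outside both control intervals higher (0.261% to 5.44% of expressed genes) and 0 to 3 lower (0.309% to 2.11%). Those ordered higher were 5 to 26 (20.3% to 50.2%) and lower 5 to 33 (24.0% to 54.2%). It also gave a median over both knockdown hairpins of -0.24 (without shFox2-1) to 0.13 (without shFox2-2). With a hairpin left out, the lone value of its condition is assumed to vary like the others. A limma adjusted p under 0.05 was reached by 0 members in any setting run. The number of members with a cluster was 30 at a fold of at least 4 (53.3% of expressed genes). It was 33 otherwise (59.5% to 61.3% of expressed genes, or 68.3% in the members' FPKM range). No paired analysis was possible because the table gives 1 pooled value per hairpin, with no replicate number in its columns. Depth is unknown, so the deposited intervals set the precision.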
